A study of Gossypium barbadense and Gossypium hirsutum with 4 samples.

Results

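The regions described here are all CENH3 islands, stretches called enriched in ChIP over input reads, that lie on chromosomes A02, A03, D02 and D03 of 2 allotetraploid cottons. They were chosen by chromosome name alone and number 24556 of 156610 islands (15.7%), with 10317 of 67639 in the Gossypium barbadense list (15.3%) and 14239 of 88971 in the Gossypium hirsutum list (16.0%). The libraries came from leaf tissue taken 4 weeks after planting; the labels give the species only, and the names of the lists carry Hai7124 for G. barbadense and TM_1 for G. hirsutum. Each species had 1 ChIP library, made from nuclei digested with micrococcal nuclease (MNase) and recovered with an antibody against CENH3, and 1 input library made without antibody. No value below therefore has a replicate, no difference was given a p-value, and the intervals printed (in parentheses after a ratio) are 95% exact binomial (Clopper-Pearson) intervals that cover counting error only. The islands of a chromosome held 119149 to 193464 ChIP and 45745 to 110778 input reads in G. barbadense, and 122817 to 354120 ChIP and 72247 to 202980 input reads in G. hirsutum.

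CENH3 is the histone H3 variant that takes the place of canonical H3 in centromeric nucleosomes, and the array of nucleosomes that carries it is where the kinetochore is built in cell division. Tetraploid cotton joins an A and a D subgenome, so that each A chromosome has a homoeologue on the D side, and D chromosomes are shorter. A02 and A03 are known to have exchanged arms in the tetraploid lineage, while D02 and D03 took no part in that exchange. The title of the series names the analysis of centromere position, and for these chromosomes the questions are where CENH3 lies on each, how A compares with D, and how the species compare. The lists hold no gene or sequence that would tie an A arm to a D arm, and no sequence is shown because no genome of the builds used by the authors was at hand.

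Strength is given as a scaled ratio, the ChIP reads of an island over its input reads (counted as at least 3) times the library constant of 1.64 in G. barbadense or 1.20 in G. hirsutum, and islands of ratio 4 or more are called strong. In G. barbadense, strong islands made up 19.5% of A02 (611 of 3128 islands), 22.9% of A03 (750 of 3281), 37.1% of D02 (810 of 2184) and 37.1% of D03 (639 of 1724), against 28.6% of the whole list. In G. hirsutum they made up 9.69% of A02 (505 of 5210), 8.68% of A03 (447 of 5148), 6.41% of D02 (137 of 2137) and 14.2% of D03 (247 of 1744), against 9.75% of the whole list. The D homoeologues thus held the larger share of strong islands on both pairs in G. barbadense, as D chromosomes did across that list. There the share ran from 20.5% to 25.5% on the other 11 A chromosomes and from 37.0% to 45.6% on the other 11 D chromosomes. In G. hirsutum D03 had the highest share of the 26 chromosomes and D02 the lowest. Islands of ratio 8 or more showed the same gap, at 94 on D03 and 20 on D02 of G. hirsutum (5.39% and 0.936% of their islands, against 2.65% of the whole list). Of these D03 islands, 76 of the 94, and 125 of the 247 strong ones, lay in its CENH3 site, described below. Outside that site the strong share of D03 was 7.60%, against a median of 7.54% on the other 11 D chromosomes of G. hirsutum. On D02 the share outside its highest stretch was 6.19%.

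**Figure D1:**
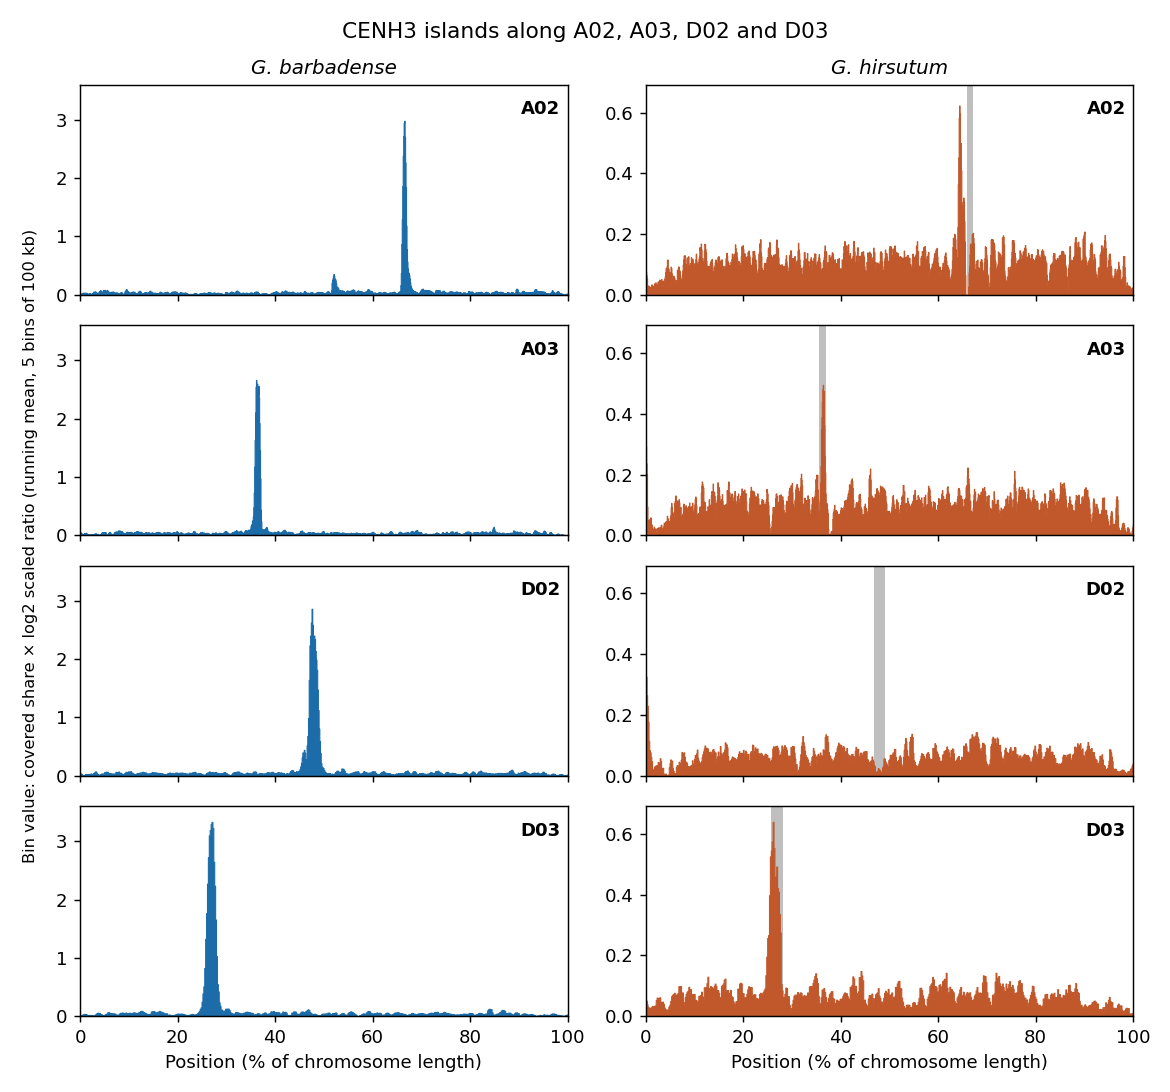
Smoothed bin value (share of a 100 kb bin covered by islands times log2 of their scaled ratio, running mean of 5 bins) along A02, A03, D02 and D03, with position in percent of chromosome length, in G. barbadense (left) and G. hirsutum (right); the vertical scales differ between species, and grey bands on the right mark the relative position of the G. barbadense site. A single peak reaches 2.66 to 3.33 on each G. barbadense chromosome, and peaks of 0.495 to 0.640 stand on A02, A03 and D03 of G. hirsutum, while D02 of G. hirsutum is low in the grey band and highest at its start.

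On all 4 G. barbadense chromosomes 1 site stood out. A site is the run of 100 kb bins around the highest smoothed bin that stays above the chromosome's median plus 25% of the rise to that bin, and it is called distinct where the highest bin is at least 2 times the highest one more than 2 Mb away. On A02 the G. barbadense site lay at 67.2 to 68.4 Mb, and its islands held 62732 ChIP and 6226 input reads, a ratio of 16.5 (16.1 to 17.0). On A03 it lay at 38.3 to 39.8 Mb with 62341 ChIP and 3847 input reads, a ratio of 26.6 (25.7 to 27.5). On D02 it lay at 32.2 to 33.8 Mb with 53671 ChIP and 3560 input reads, a ratio of 24.7 (23.9 to 25.6). All 4 sites reached at least 8.33 times the next highest bin of their chromosome. On D03 the site lay at 13.8 to 15.1 Mb with 59903 ChIP and 2934 input reads, a ratio of 33.5 (32.3 to 34.8). The other 22 G. barbadense sites ran from 16.7 to 33.9. The A02 ratio lay at the low end, within counting error of that of A09 (16.7, 16.2 to 17.2), and the D03 ratio at the high end, within counting error of those of D04 (33.9, 32.4 to 35.4) and D05 (32.5, 31.1 to 33.8).

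In G. hirsutum, A02, A03 and D03 carried a site of the same kind with fewer reads. The A02 site lay at 69.3 to 70.8 Mb with 10977 ChIP and 1836 input reads, a ratio of 7.17 (6.83 to 7.54). The A03 site lay at 40 to 41.1 Mb with 7302 ChIP and 1071 input reads, a ratio of 8.18 (7.67 to 8.73). It was only 1.69 times as high as the bins at the start of the chromosome, where the islands of the first 0.3 Mb had a ratio of 1.68 (1.63 to 1.74), and so it was not called distinct. From strong islands alone the A03 site was distinct, at 6.12 times the next bin. The D03 site lay at 13.4 to 14.9 Mb with 9720 ChIP and 1520 input reads, a ratio of 7.67 (7.27 to 8.11), and stood 4.30 times above the rest of its chromosome.

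D02 of G. hirsutum had no such site. Its highest bins lay at the chromosome start, at 0 to 0.4 Mb, where 37 islands held 7956 ChIP and 6416 input reads, a ratio of 1.49 (1.44 to 1.54). This stretch met the rule for a distinct site, at 2.27 times the next bin, yet only 7 of its 37 islands were strong, against 114 of 133 in the A02 site and 125 of 138 in the D03 site of the same species. Its first island, at 1 to 18800, alone held 4128 ChIP and 4117 input reads. With strong islands alone the stretch was no longer distinct, and with islands of ratio 8 or more the highest bins moved to 31.0 to 31.6 Mb and rested on 2 islands.

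The place where D02 of G. barbadense carried its site was sparse in G. hirsutum. The lists cannot show whether sequence is missing there from the G. hirsutum assembly. The site covered 46.8% to 49.1% of D02 in G. barbadense, which corresponds by relative position to 32.6 to 34.2 Mb of G. hirsutum D02. That window held 14 islands, 4 of them strong and none of ratio 8 or more, with a ratio of 2.28 (2.01 to 2.58). Islands covered 1.63% of it, against 44.7% of the G. barbadense site and 6.53% of the whole G. hirsutum chromosome, and the longest stretch in it without an island was 411.2 kb. The segment from 45% to 50% of the chromosome length had 17.2 islands per Mb in G. hirsutum, the lowest value between the chromosome ends, where the median segment had 32.6 and the densest 45.3. In the same segment G. barbadense had 149.6 islands per Mb. Widening the window by 2% of the length on each side gave 94 islands, 12 strong ones and a ratio of 2.17 (2.08 to 2.27). Strong islands of G. hirsutum D02 were scattered, with at most 11 in any 1 Mb window that opened on a strong island, against 104 on D03, 90 on A02 and 89 on A03. A low count was not confined to D02, since D08 of the same species had 8 and D11 had 21. The highest stretch had a ratio of 1.98 to 2.97 on D11, A09, D05, A07, A05 and D08. On A05, A07, A09 and D05 that stretch was not where strong islands clustered. Their next highest stretch had ratios of 10.2, 10.9, 10.1 and 10.1, with up to 80, 104, 83 and 45 strong islands in 1 Mb. The strongest islands of G. hirsutum D02 with at least 40 ChIP reads were sought away from the chromosome start and its flank of 5 Mb. They were at 10399801 to 10400400 (42 ChIP and 3 input reads, ratio 16.8), 31208401 to 31209000 (46 and 6 reads, ratio 9.20) and 25018001 to 25018600 (45 and 6 reads, ratio 9).

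**Figure D2:**
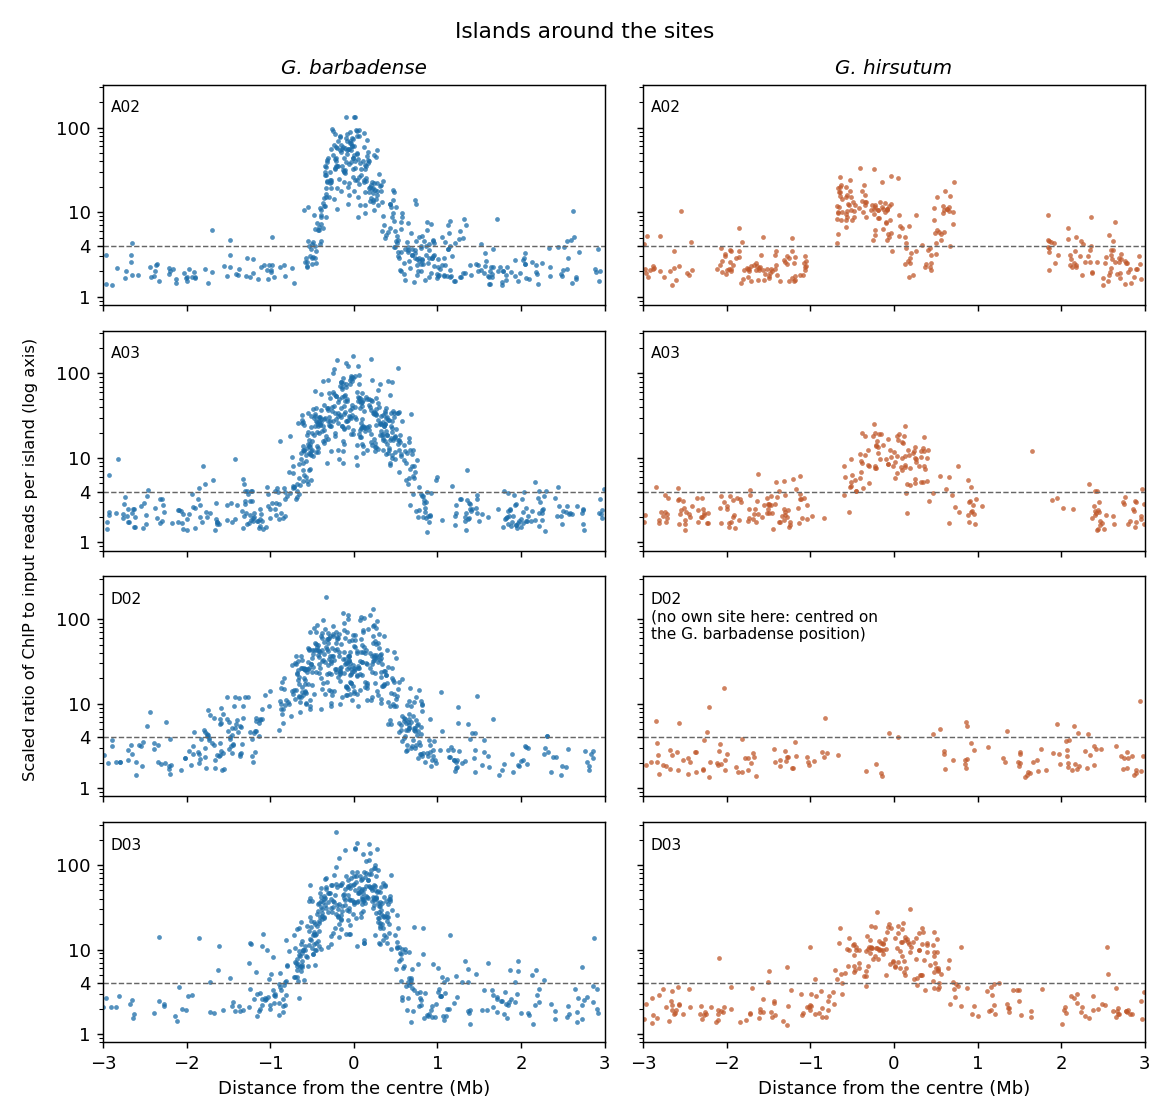
Scaled ratio of single islands (log axis, dashed line at the strong threshold of 4) against distance in Mb from the site midpoint on A02, A03, D02 and D03, in G. barbadense (left) and G. hirsutum (right), where each point is 1 island and the G. hirsutum D02 panel is centred on the relative position of the G. barbadense site. Islands in the G. barbadense sites reach ratios of 135.0 to 242.7, those in the G. hirsutum sites of A02, A03 and D03 reach 24.9 to 33.3, and the G. hirsutum D02 panel shows no dome of strong islands.

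Within the G. barbadense sites the ratio rose steeply to a core and fell again. On A02 the 100 kb bins of the site ran from a ratio of 2.85 at the first to 63.5 (54.6 to 74.3) at 67.7 to 67.8 Mb and 4.09 at the last. The highest bins were of like strength on the other chromosomes, at 64.6 (53.0 to 79.6) on A03 at 39.0 to 39.1 Mb, 55.7 (48.7 to 64.0) on D02 at 32.6 to 32.7 Mb and 65.8 (56.6 to 77.1) on D03 at 14.4 to 14.5 Mb. The A02 core was as strong as the others within counting error, while its first bin was weaker than that of A03 (5.09), D02 (18.2) and D03 (8.94). The islands of ratio 8 or more within 2 Mb of the site took up the shortest span on A02, where they were also fewest. They numbered 187 on A02, 326 on A03, 350 on D02 and 305 on D03. The middle 80% of their covered length spanned 0.621 Mb on A02. It spanned 0.950 Mb on A03, 1.15 Mb on D02 and 0.894 Mb on D03. The 3 islands of most input on A02 held 12.5% of the site's input reads, and without them its ratio was 17.8 (17.3 to 18.3), still below those of A03, D02 and D03.

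The strongest single islands of each G. barbadense chromosome lay in its site. On D03 the island at 14233801 to 14239000 held 592 ChIP and 4 input reads, a ratio of 242.7, and on D02 the one at 32662601 to 32666200 held 333 ChIP reads and 1 input read, a ratio of 182.0. On A03 the highest was at 39033001 to 39035400 (290 ChIP and 0 input reads, ratio 158.5) and on A02 at 67809801 to 67811600 (247 and 0 reads, ratio 135.0). With input below 3 reads these ratios rest on the floor of 3. The longest island of A02, at 67891601 to 67916800, spanned 25200 bp in the site and held 3435 ChIP and 139 input reads, a ratio of 40.5. Most islands of each site were strong, at 209 of 232 on A02, 350 of 356 on A03, 354 of 368 on D02 and 299 of 304 on D03. They covered 49.7%, 43.4%, 44.7% and 49.5% of those sites, and no uncovered stretch in them exceeded 37.6 kb.

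The edges of the G. barbadense sites were not alike on both sides. On A02 the 1 Mb before the site held 30 islands, 3 of them strong, while the 1 Mb after it held 106, 28 of them strong. On D02 the long side lay before the site. A shoulder from 31.2 to 31.8 Mb held 64 islands, 34 of them strong, with a ratio of 3.55 (3.33 to 3.80), and the 0.4 Mb between it and the site held 28 islands, 27 of them strong, with a ratio of 7.43 (6.51 to 8.51). The 1 Mb after the D02 site held 59 islands, 15 of them strong. On A03 the first 0.5 Mb held 9 strong islands of 45 before the site and 5 of 29 after it, and on D03 it held 29 of 57 before and 16 of 48 after. These stretches were set after the profiles had been seen.

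The A02 site of G. hirsutum was split. Its first 0.8 Mb, from 69.3 to 70.1 Mb, had 82 strong islands of 83 and a ratio of 10.9 (10.1 to 11.8). The next 0.5 Mb, to 70.6 Mb, had 16 of 34 and a ratio of 3.46 (3.21 to 3.74), and the last 0.2 Mb, to 70.8 Mb, had 16 of 16 and a ratio of 10.3 (8.80 to 12.2). Directly after this second block came a stretch of 1119.6 kb, from 70.8 to 71.9 Mb, with no island at all, the longest on A02. Of the 26 G. hirsutum chromosomes only D04 and D08 had a longer one. Beyond it, from 71.8 to 72.8 Mb, 14 of 58 islands were strong. The relative position of the G. barbadense A02 site falls at 71.3 to 72.6 Mb of G. hirsutum, partly in this uncovered stretch, and that window held 40 islands, 11 of them strong, with a ratio of 2.92 (2.74 to 3.12). A03 of G. hirsutum also had its longest uncovered stretch near its site, 600.4 kb long and 0.501 Mb away, while on D03 of G. hirsutum and on all 4 chromosomes of G. barbadense the longest one lay at least 9.26 Mb from the site. Such a place was not particular to A02 and A03. Off these 4 chromosomes it lay within 0.7544 Mb on D01, D04, D06, D07, D10, D12 and D13 of G. hirsutum. In G. barbadense this held for D04, and on the rest the distance was larger. An uncovered stretch means that no island was called there, and the lists give no reason.

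Fewer input reads as well as more ChIP reads went with the high ratios. The median island of the G. barbadense sites held 95.8 ChIP reads per kb on A02, 80 on A03, 73.6 on D02 and 81.8 on D03, against 28.3 to 30.0 for islands outside the sites and their flanks of 5 Mb. It held 3.33 to 6.15 input reads per kb in the sites, against 18.5 to 22.9 outside them. In G. hirsutum the sites of A02, A03 and D03 held 45.0 to 51.1 ChIP reads per kb, against 30.6 to 32.5 outside, and 5.73 to 6.25 input reads per kb, against 17.3 to 18.0. The part of input depth in the ratios was not tested.

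By relative position the sites of the species lay close together on A02, A03 and D03. The midpoint was at 66.5% of A02 in G. barbadense and at 64.7% in G. hirsutum, a difference of 1.78 percentage points. The A02 sites spanned 65.9% to 67.1% and 64.0% to 65.4% of the length, so they were near each other without overlap. On A03 the midpoint was at 36.3% in both, with a difference of -0.0287 points, and on D03 at 26.9% in G. barbadense and 26.3% in G. hirsutum, a difference of 0.564 points. On D02 the highest stretches lay at 47.9% in G. barbadense and 0.287% in G. hirsutum, 47.6 points apart. With a tolerance of 2% in place of 5% of chromosome length the count of chromosomes with matching sites stayed at 3 of 4. The A02 and A03 chromosomes ended 6.29 and 4.04 Mb earlier in G. barbadense than in G. hirsutum, on different assemblies, while D02 and D03 ended 0.872 and 0.0118 Mb earlier. On A02 the shortfall was 2.25 Mb before the site and 4.04 Mb after it, and on A03 1.5 and 2.54 Mb.

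The ratio and the filling of the sites were higher in G. barbadense on all 3 chromosomes with matching sites. The ratio in G. barbadense was 2.30 (2.18 to 2.44) times that in G. hirsutum on A02, 3.25 (3.02 to 3.49) times on A03 and 4.36 (4.08 to 4.66) times on D03. The species order was the same on each, and the size of the gap differed beyond counting error. Islands covered 596.8 kb of the A02 site in G. barbadense against 224.4 kb in G. hirsutum, 651 kb of the A03 site against 143.6 kb, and 643 kb of the D03 site against 226.8 kb. With 1 library per species, antibody yield and species cannot be told apart.

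The site widths of A and D homoeologues gave no single direction. In G. barbadense the A02 site was 1.2 Mb wide and the D02 site 1.6 Mb, a difference of -0.4 Mb, while the A03 site was 1.5 Mb wide and the D03 site 1.3 Mb, a difference of 0.2 Mb. In G. hirsutum the A03 site was 1.1 Mb wide and the D03 site 1.5 Mb, a difference of -0.4 Mb. The A02 site of that species, at 1.5 Mb, has only the low-ratio stretch of 0.4 Mb on D02 beside it. Widths are resolved to 1 bin of 100 kb. In G. barbadense the A over D ratio of the site ratios was 0.668 on pair 2 and 0.794 on pair 3, the D site being the stronger, and on pair 3 of G. hirsutum it was 1.07.

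Position along the chromosome differed between the homoeologues, most on pair 2. In G. barbadense the A02 midpoint lay 18.6 percentage points further along than that of D02, and the A03 midpoint 9.45 points further along than that of D03. Over the other 11 pairs the size of this difference had a median of 9.15 points and a range of 1.12 to 16.4, so pair 2 had the largest of the 13 and pair 3 was exceeded by 4. In G. hirsutum the A03 midpoint lay 10 points further along than that of D03.

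**Figure D3:**
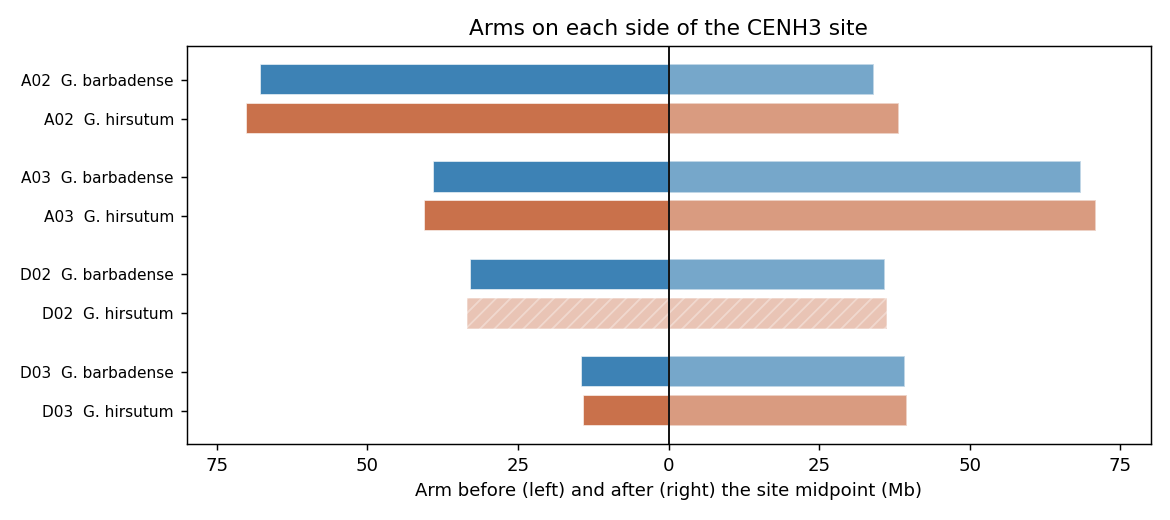
Length in Mb from the site midpoint to the chromosome start (left) and to the end of the last island (right) for A02, A03, D02 and D03, with G. barbadense above G. hirsutum on each; the hatched G. hirsutum D02 bar is split at the relative position of the G. barbadense site. The long arm lies before the site on A02 (67.8 and 70.05 Mb) and after it on A03 (68.5 and 71.0 Mb).

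The A over D length ratio was not the same on both sides of the sites. In G. barbadense A02 measured 67.8 Mb before and 34.2 Mb after its site, and D02 measured 33.0 and 35.9 Mb, so the A arm was 2.05 times as long as the D arm before the site and 0.953 times as long after it. A03 measured 39.05 Mb before and 68.5 Mb after, and D03 measured 14.45 and 39.3 Mb, which gives 2.70 and 1.74 times. Whole chromosomes were 1.48 times as long on A02 as on D02 and 2 times as long on A03 as on D03, with 1.43 to 1.88 times over the other 11 pairs. With the pairing crossed, because A02 and A03 exchanged arms, A02 was 1.90 times as long as D03 and A03 1.56 times as long as D02. In that pairing the long arms were 1.72 times (A02 over D03) and 1.91 times (A03 over D02) as long on A, and the short arms 2.37 and 1.18 times. Whole-chromosome values in G. hirsutum were 1.55 for pair 2 and 2.07 for pair 3, with 1.54 to 1.93 over the other 11 pairs. Which arms moved cannot be read from the lists.

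**Figure D4:**
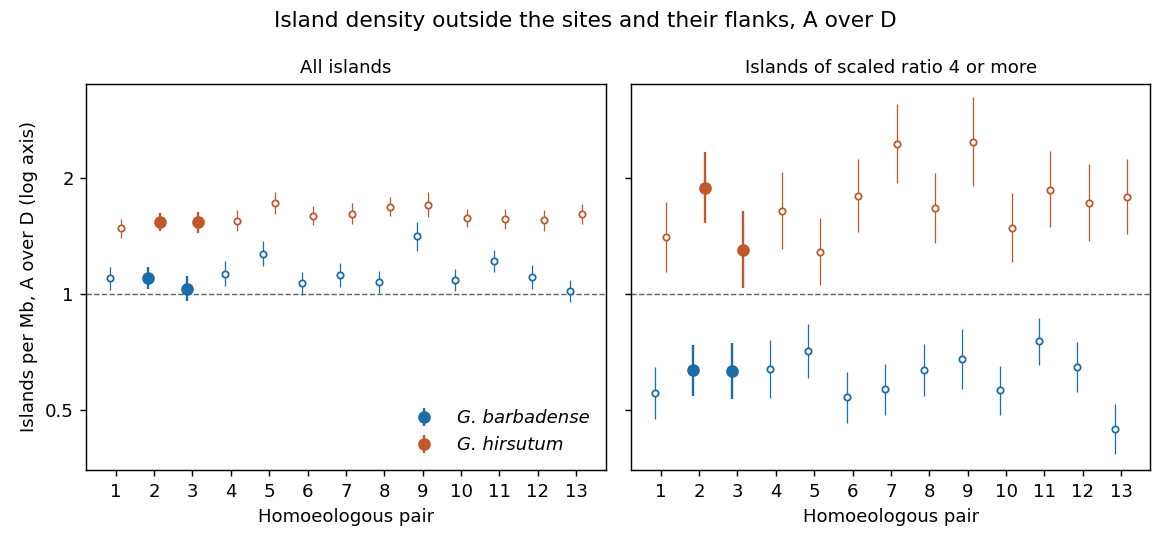
Islands per Mb outside the sites and their flanks of 5 Mb, A over D (log axis), for the 13 homoeologous pairs in G. barbadense (blue) and G. hirsutum (orange), with 95% counting intervals; filled points are pairs 2 and 3, open points the other pairs, the left panel holds all islands and the right panel strong islands. For strong islands pairs 2 and 3 lie at 0.634 and 0.633 in G. barbadense and at 1.88 and 1.3 in G. hirsutum, on opposite sides of 1. In pairs 5, 7 and 9 of G. hirsutum the counts keep a cluster of strong islands that lies away from the called site.

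Outside the sites and flanks, islands of all strengths were denser on A in G. hirsutum on both pairs. In G. barbadense they were slightly denser on A on pair 2, with no difference beyond counting error on pair 3, and the direction turned with a q-value of at most 1e-05, to 0.892 (0.813 to 0.979) on pair 2 and 0.812 (0.734 to 0.899) on pair 3. In G. barbadense, A02 had 27.4 islands per Mb and D02 24.8, an A over D ratio of 1.10 (1.03 to 1.18), and A03 had 25.7 and D03 24.9, a ratio of 1.03 (0.961 to 1.11). In G. hirsutum A02 had 48.0 and D02 31.3 islands per Mb, a ratio of 1.54 (1.46 to 1.62), and A03 had 46.0 and D03 30.1, a ratio of 1.53 (1.44 to 1.63). Islands covered 3.92% of this sequence on A02 and 3.42% on D02 in G. barbadense, against 9.99% and 6.64% in G. hirsutum. The other 11 pairs ran from 1.02 to 1.41 in G. barbadense and from 1.48 to 1.72 in G. hirsutum, so pairs 2 and 3 lay within the range of the rest in both.

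Strong islands of the arms went opposite ways in the species. In G. barbadense A02 had 345 (3.80 per Mb) and D02 343 (5.99 per Mb), a ratio of 0.634 (0.545 to 0.739), and A03 had 349 (3.63 per Mb) and D03 244 (5.74 per Mb), a ratio of 0.633 (0.536 to 0.748). In G. hirsutum A02 had 345 (3.57 per Mb) and D02 122 (1.90 per Mb), a ratio of 1.88 (1.53 to 2.33), and A03 had 321 (3.19 per Mb) and D03 104 (2.46 per Mb), a ratio of 1.3 (1.04 to 1.64). Over the other 11 pairs the ratio ran from 0.448 to 0.755 in G. barbadense and from 1.28 to 2.47 in G. hirsutum. In pairs 5, 7 and 9 of G. hirsutum the called sites of A05, D05, A07 and A09 lay away from a cluster of strong islands. Those clusters, of 45 to 104 islands in 1 Mb, stayed in the counts. The remaining pairs of G. hirsutum ran from 1.40 (pair 1) to 1.86 (pair 11). Pair 2 lay above that range and pair 3 below it, both within counting error of it. The median strong arm island held 10 input reads per kb on A02 and 8.57 on D02 in G. barbadense, and 10 on both in G. hirsutum. On A03 and D03 it held 10 and 8.75 in G. barbadense, and 10.8 and 10 in G. hirsutum. Over all arm islands of G. barbadense the median was 22.5 on A02, 18.75 on D02, 22.9 on A03 and 18.5 on D03. In G. hirsutum it was 17.6, 17.9, 18.0 and 17.3 in the same order. The part of input depth in the densities was not tested. On D02 of G. hirsutum the stretch left out was the chromosome start with its flank, and leaving out the relative position of the G. barbadense site in its place gave 1.53 (1.45 to 1.62) for all islands.

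The arms on each side of a site were alike in density of all islands on the 4 chromosomes of G. barbadense. It was 26.9 before and 28.4 per Mb after on A02, 25.1 and 26.1 on A03, 24.6 and 25 on D02, and 25.6 and 24.7 on D03. Strong islands numbered 3.60 and 4.23 per Mb on A02, 3.72 and 3.59 on A03, and 6.21 and 5.79 on D02. The gap was widest on D03, with 7.84 per Mb on the short arm before its site (69 islands over 8.8 Mb) and 5.20 per Mb on the long arm after it (175 over 33.7 Mb). In G. hirsutum A03 had 42.9 islands per Mb before its site and 47.7 after it, and A02 had 48.8 and 46.4. The first and the last segment of 5% of the length had fewer islands than the median segment on all 4 chromosomes of both species. The first had 13.6 to 21.4 per Mb in G. barbadense and 17.8 to 25.5 per Mb in G. hirsutum. The last had 13.2 to 18.8 per Mb in G. barbadense and 13 to 28.1 per Mb in G. hirsutum.

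A second rise on A02 of G. barbadense lay at 53.05 Mb, 52.0% along the chromosome. The 1 Mb around it held 91 islands that covered 19.9% of it, 14 of them strong, with a ratio of 2.42 (2.33 to 2.52) and a longest island of 13.8 kb. Of the 33 islands of 5 kb or more on A02 outside the site, 7 lay there. The segment from 50% to 55% of A02 had 49.6 islands per Mb, the highest outside the segment that holds the site, where the median segment between the ends had 27.3. At the same relative position the 1 Mb of G. hirsutum had 42 islands, 2 of them strong, and a ratio of 2.17 (2.04 to 2.30), where the A02 arms had 2.07 on both sides of the site.

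Each of the 4 chromosomes opened with an island at its first base in both lists, as 25 of 26 chromosomes did in G. barbadense and all 26 in G. hirsutum. These islands were 9800 to 18800 bp long in G. barbadense and 16200 to 18800 bp in G. hirsutum, held 3394 to 5512 ChIP and 4117 to 6677 input reads each, and had ratios of 1.16 to 1.32 in G. barbadense and 1.20 to 1.42 in G. hirsutum. Islands of 1000 or more input reads, the first one included, numbered 1 or 2 on each chromosome except A03 of G. hirsutum, which had 4. On D02 of G. barbadense the island at 37502601 to 37507400, 3.70 Mb after the site, held 4273 ChIP and 3934 input reads, a ratio of 1.78. In G. hirsutum the island at 80287401 to 80290800 on A02 held 2833 ChIP and 2475 input reads, a ratio of 1.37. The one at 68848601 to 68853600 on A03 of that species held 6626 ChIP and 5081 input reads, a ratio of 1.56, and the one at 2429801 to 2433400 on D03 held 5318 and 5085 reads, a ratio of 1.25.

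Outside site and flanks the highest ratios among islands of at least 40 ChIP reads in G. barbadense were 28.4 on A02 at 17530801 to 17532000 (52 ChIP and 2 input reads), 12.2 on A03 at 5159001 to 5160600 (67 and 9 reads), 22.6 on D02 at 10095201 to 10097200 (55 and 4 reads) and 32.3 on D03 at 45107001 to 45108600 (59 and 3 reads). In G. hirsutum they were 16.0 on A02 at 24288001 to 24288600 (40 and 3 reads), 16.2 on A03 at 92601 to 94000 (54 and 4 reads) and 13.2 on D03 at 31235801 to 31237200 (44 and 4 reads). All of these held fewer than 10 input reads, so their ratios move with a few reads.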

How the data were processed

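ChIP and input libraries, 1 each per species, were compared through 2 deposited lists of islands. Per the submitters' processing notes, the authors used Trimmomatic, Bowtie2 and SICER; not given in the sources used here are their versions and the assemblies. Names of the lists record windows of 200 bp, gaps of 400 bp and a false discovery rate of 0.01, and carry the tag uniq. The authors deposited raw counts of ChIP and input reads per island, a p-value and a q-value (false discovery rate), and a fold (ratio) of ChIP over scaled input, from which the constants of 1.64 and 1.20 were read. Columns have no header and follow SICER's order. The lists cover reads inside islands only, so library depth is not known from them.

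From these, scaled ratios, sites, densities and counting intervals were computed with Python 3.11.15, pandas 2.3.3, NumPy 2.4.6 and SciPy 1.17.1, and the site caller was tested on simulated data. Each list has its own assembly, so positions in Mb do not transfer between species, and the end of the last island stands for the chromosome's length. Islands were assigned to windows by their midpoint. Single islands were named by rank of ratio (with at least 40 ChIP reads), of reads and of length, by 1 rule for all chromosomes. The members, stretches and settings were chosen with earlier results of these data known. No gene annotation was used.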

Additional observations from a re-analysis of the deposited data

Results flagged for a closer look

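Strong islands outside sites and flanks gave opposite A to D directions in the 2 species, each represented by 1 ChIP and 1 input library. On pair 2 the log2 A over D density was lower in G. barbadense than in G. hirsutum by a difference of -1.57, and on pair 3 by -1.04. The difference itself was not tested. The other 11 pairs also lay below 1 in G. barbadense (0.448 to 0.755) and above 1 in G. hirsutum (1.28 to 2.47). In G. hirsutum the counts of pairs 5, 7 and 9 keep a cluster of strong islands away from the called site. The remaining pairs of that species ran from 1.40 to 1.86.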

How the results depend on the processing

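Under 139 combinations of a result and another setting, 107 values stayed close to the reported one: within its resolution or counting interval or, for a count of chromosomes, within 1.5 times of it. No paired analysis was possible because each group is 1 library. With covered length alone as the bin value, the highest G. hirsutum bins left the site on A02 and A03. Distinct sites in G. hirsutum fell to 1 of 3 (D02, at its start, where A02 and D03 are lost), 2 of 4 chromosomes matched in position in place of 3, the G. barbadense minus G. hirsutum position moved to 3.46 points on A02 and 36.0 on A03, and the site ratio of G. barbadense over G. hirsutum became 5.67 on A02, 11.5 on A03, 14.7 on D02 and 3.73 on D03. Width differences of A minus D became 0 Mb on pair 2 of G. barbadense, and 0.4 and -1.4 Mb on pairs 2 and 3 of G. hirsutum. With bins valued by ChIP reads less scaled input the species ratio was 2.86 on A02, 21.3 on D02 and 5.16 on D03. With 50 kb bins it was 2.50 on A02, and with an input floor of 1 read 2.53. With strong islands alone it was 5.96 on D02 and 4.07 on D03; G. hirsutum again had 3 distinct sites, on A02, A03 and D03. Settings added after the data were seen were islands of ratio 8 or more, with which the D02 positions came within 2.89 points and 4 of 4 matched (the G. hirsutum stretch rests on 2 islands and is not distinct), the species ratio was 2.68, 2.80 and 2.94 on A03, D02 and D03, and A minus D widths in G. hirsutum were 0.3 and 0 Mb on pairs 2 and 3; and leaving out islands at the first base, with which the D02 species ratio was 12.4. The D02 species ratio, 16.6 with all islands, sets the G. barbadense site against the chromosome start of G. hirsutum. Arm density of A over D in G. barbadense turned below 1 with a q-value of at most 1e-05, at 0.892 and 0.812 on pairs 2 and 3, and with strong islands, at 0.634 and 0.633; in G. hirsutum it was 1.68 and 1.65, and 1.88 and 1.3. Causes were not tested. The crossed pairing, a flank of 2 Mb, and on D02 of G. hirsutum the G. barbadense position left out in place of the chromosome start, moved no A over D density of all islands beyond its interval; for strong islands these were not run. The depth of the libraries is not known from the lists.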
